A study of Mus musculus with 2 samples.

Results

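DNA damage response and repair genes were examined in 2 areas of the embryonic mouse brain, the subventricular zone (SVZ) and the cortex. The set held 40 genes of homologous recombination, the Fanconi anaemia pathway, end joining, checkpoint signalling and break sensing. They were chosen by name, with earlier results of these data known. All 40 were found by their symbols among the 24411 genes of the count tables. Both areas were cut by laser capture microdissection (LCM), in which a laser frees a chosen area of a stained tissue section, from fresh-frozen brain at embryonic day 16.5, and the study used them as a benchmark for its own spatial method. Each area was 1 bulk RNA-seq library of untreated tissue. The sources used here name no strain, genotype or number of embryos, nor how many cells were cut. With 1 library for each area no difference has a replicate check, and no test between the areas was made.

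A cell that copies its DNA must repair breaks and stalled replication forks before it divides. Breaks are sensed by the MRN complex and signalled by the kinases ATM and ATR, which through CHK2 and CHK1 hold the cell cycle. Homologous recombination copies the lost sequence from the sister chromatid, and so works after replication, while end joining reseals broken ends and also serves cells that no longer divide. The Fanconi anaemia proteins unlock crosslinked strands at forks. The SVZ of the embryonic forebrain is a germinal layer with cycling progenitors, and the cortex holds the neurons they give rise to.

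Reads assigned to genes numbered 51435667 for the SVZ and 22050693 for the cortex, and levels are given as CPM, the count per 1000000 of these reads. The 95% interval beside a ratio is an exact Clopper-Pearson one that covers the counting error of reads only, each taken as an independent draw. The reads are PCR copies without molecular identifiers, so that the error of sampling molecules is not measured by it. Markers followed the labels. Pax6 had 180 CPM in the SVZ and 0.680 CPM in the cortex, the 10 progenitor markers summed to 7130 CPM and 155 CPM, and all 10 were over 4-fold higher in the SVZ. The 12 neuronal markers summed to 4050 CPM in the SVZ and 10400 CPM in the cortex. The 8 microglial markers summed to 66.4 CPM and 6.94 CPM, and the 5 choroid plexus markers to 245 CPM and 0.907 CPM, most of it Ttr with 12363 reads against 16. The 6 meningeal markers summed to 4.59 CPM and 9.39 CPM, the 8 endothelial and pericyte markers to 145 CPM and 111 CPM and the 8 interneuron markers to 154 CPM and 514 CPM. Npy alone gave 14.3 CPM and 379 CPM of the interneuron sums, and the median log2 ratio of these 8 genes was 0.21. The 6 erythroid markers summed to 20.4 CPM and 10.9 CPM with the globins Hba-a1, Hbb-bs and Hbb-bt at 0 in both. The part of these other cells in the values below was not tested. In bulk tissue, fewer cells of a type and less RNA per cell cannot be told apart.

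DNA repair genes were, as a set, higher in the SVZ than in the cortex. All 40 reached an average of 1 CPM across the pair of libraries, the minimum for a gene to enter counts and medians. Their median log2 ratio of SVZ to cortex was 1.43, with quartiles of 0.73 and 3.10, against a median of 0.11 over all 12738 genes with that mean level. In the SVZ 26 of the 40 genes (65.0%) were at least 2-fold higher, compared with 20.0% of all genes measured. By 4-fold or more 15 genes were higher in the SVZ, against a background of 10.2%. None of the 40 was 2-fold higher in the cortex, where 15.6% of all genes were. The set was chosen with earlier results of these data known, so these counts describe it and do not test it. The counting interval lay above equal levels for 37 genes (48.2% of all genes) and below it for 3 (38.6% of all genes). Most genes of any kind thus pass such an interval, which takes each read as independent. Together the 40 genes took 1520 CPM in the SVZ and 806 CPM in the cortex, a 1.89-fold difference.

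**Figure D1:**
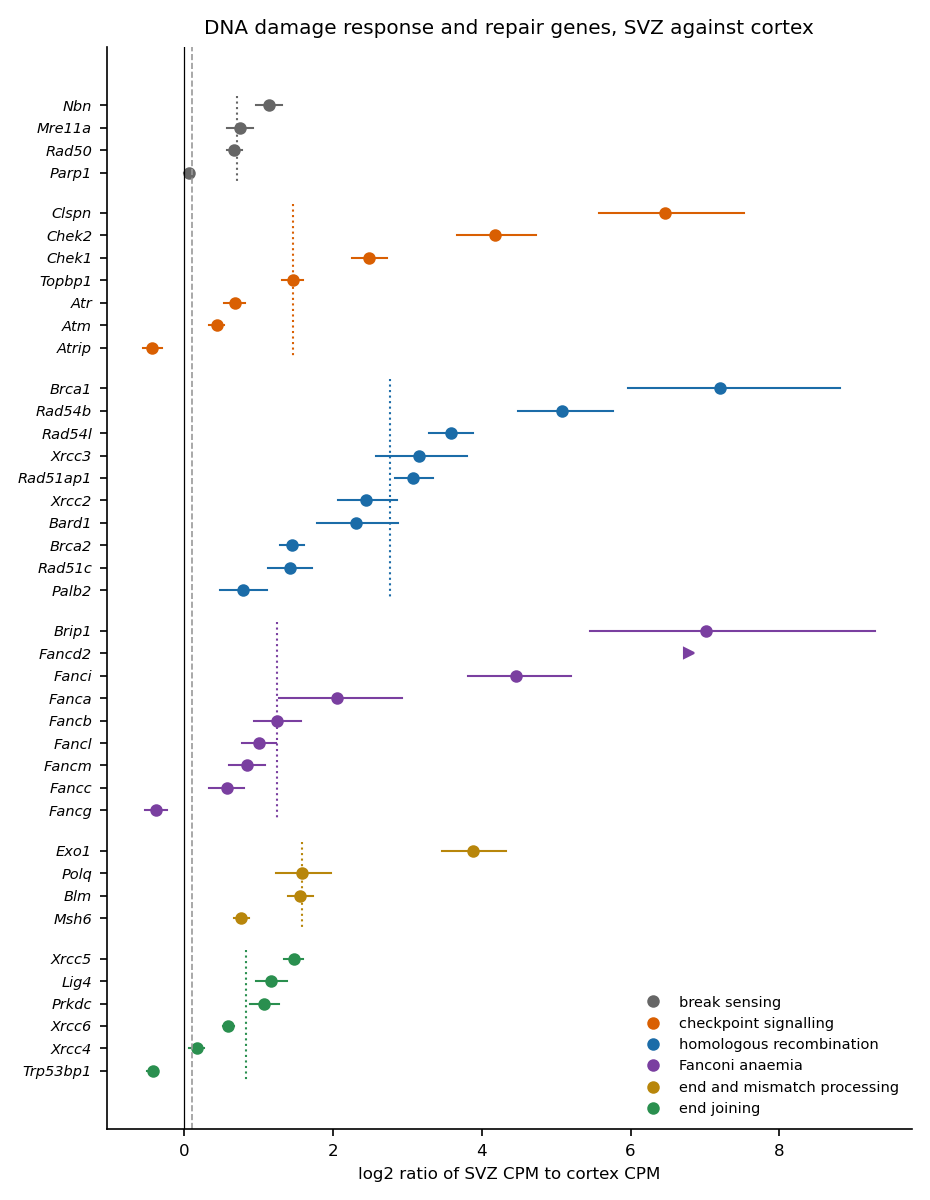
Log2 ratio of CPM between SVZ and cortex (x axis) for each of the 40 genes, grouped by role. Bars are 95% counting intervals, the arrow is a bound set at 3 cortex reads, dotted lines are role medians, the solid line marks equal CPM and the dashed line the median of all genes measured (0.11). Homologous recombination genes have the highest role median, 2.77, and 3 genes, Fancg, Trp53bp1 and Atrip, lie below 0.

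The roles differed in their medians. Homologous recombination had the highest median log2 ratio, 2.77 over 10 genes, with 9 of them at least 2-fold higher in the SVZ. The 4 genes of end and mismatch processing had a median of 1.58, the 7 checkpoint genes 1.46 and the 9 Fanconi anaemia genes 1.25. The 6 end joining genes had a median of 0.83 and the 4 break sensors 0.71, both above the 0.11 of all genes. The order of the groups holds for the genes of this set and was not tested. Recombination did not lead among genes outside the set. The medians there were 0.71 for recombination, 0.92 for Fanconi, 0.89 for checkpoint and 0.51 for end joining genes.

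Break sensors were the most even group. Nbn, Mre11a and Rad50 make up the MRN complex, which binds broken ends and recruits ATM. Nbn had 34.7 CPM in the SVZ and 15.8 CPM in the cortex, a log2 ratio of 1.14 (0.97 to 1.31). Mre11a, the nuclease, had 25.8 CPM and 15.3 CPM, and Rad50, which tethers the ends, 66.8 CPM and 41.9 CPM, with log2 ratios of 0.75 and 0.67. Their difference of 0.08 had an interval of -0.12 to 0.29, so that it was not detectable at this depth. Parp1, which marks single-strand breaks with poly(ADP-ribose), had 156 CPM in the SVZ and 150 CPM in the cortex, a log2 ratio of 0.06 that changed sign with the scaling of the libraries, to -0.03 under TMM and DESeq2 size factors and -0.04 under upper-quartile scaling.

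Checkpoint genes covered nearly the full range of the set. Clspn encodes Claspin, the adaptor through which ATR activates CHK1 at stalled forks. The gene lies on the plus strand at chr4:126556935-126593903 (GRCm38). It had 2058 reads (40.0 CPM) in the SVZ and 10 reads (0.454 CPM) in the cortex, a log2 ratio of 6.46 (5.58 to 7.53). Chek2, the kinase downstream of ATM, had 26.2 CPM and 1.45 CPM, an 18.1-fold difference. Chek1, the kinase downstream of ATR, had 43.0 CPM and 7.66 CPM, a 5.61-fold difference. Topbp1, the activator of ATR, had 62.4 CPM and 22.7 CPM. The apical kinases stood lower in this order. Atr had 38.1 CPM in the SVZ and 23.9 CPM in the cortex, and Atm 62.4 CPM and 46.0 CPM, with log2 ratios of 0.68 (0.54 to 0.82) and 0.44 (0.34 to 0.54). Atrip, the partner that brings ATR to single-stranded DNA, was higher in the cortex, with 27.5 CPM in the SVZ and 36.9 CPM there, a log2 ratio of -0.43 (-0.55 to -0.30). Atrip shares 1147 exon bases on the same strand with Trex1, a DNA exonuclease. Where the annotation used for counting has the same overlap, reads in these bases are left out of both counts.

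Homologous recombination genes were all higher in the SVZ. Brca1, the tumour suppressor that steers breaks towards recombination, had 1712 reads (33.3 CPM) in the SVZ and 5 reads (0.227 CPM) in the cortex. Its log2 ratio of 7.20 (5.97 to 8.82) stood above those of 99.6% of all genes measured. The gene lies on the minus strand at chr11:101488764-101551955 (GRCm38). Its obligate partner Bard1 had 371 reads (7.21 CPM) and 32 reads (1.45 CPM), a log2 ratio of 2.31 (1.79 to 2.88). Palb2, which links BRCA1 to BRCA2, was the least different gene of the role, with 8.48 CPM in the SVZ and 4.90 CPM in the cortex. Brca2, the tumour suppressor that prepares single-stranded DNA for strand exchange, had 45.7 CPM and 16.8 CPM, a 2.72-fold difference.

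The motor and mediator genes of recombination lay between these. Rad54b, a motor protein of the RAD54 family, had 1737 reads (33.8 CPM) in the SVZ and 22 reads (0.998 CPM) in the cortex, a log2 ratio of 5.08 (4.48 to 5.76). It shares 2068 exon bases on the same strand with Fsbp, which had 13 reads in the cortex. Its relative Rad54l had 2812 reads (54.7 CPM) and 101 reads (4.58 CPM), a log2 ratio of 3.58 (3.29 to 3.88). Rad51ap1, which promotes strand exchange, had 53.5 CPM and 6.30 CPM. The mediators Xrcc3, Xrcc2 and Rad51c, which act ahead of strand exchange, were all higher in the SVZ. Xrcc3 had 10.1 CPM in the SVZ and 1.13 CPM in the cortex, a log2 ratio of 3.16 (2.58 to 3.80). Xrcc2 had 14.6 CPM and 2.68 CPM, a log2 ratio of 2.45, and Rad51c 13.8 CPM and 5.17 CPM, a log2 ratio of 1.42.

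Fanconi anaemia genes ranged from a gene with no cortex reads to 1 that was higher in the cortex. FANCD2 and FANCI form the pair that the pathway modifies with ubiquitin. Fancd2 had 768 reads (14.9 CPM) in the SVZ and 0 reads in the cortex. With the cortex set at 3 reads (0.136 CPM), the floor used here for a count of 0, the SVZ level of Fancd2 was 110-fold higher. The interval of its log2 ratio began at 6.48. Fanci had 975 reads (19.0 CPM) and 19 reads (0.862 CPM), a log2 ratio of 4.46 (3.81 to 5.20). Brip1, the helicase that binds BRCA1, had 904 reads (17.6 CPM) in the SVZ and 3 reads (0.136 CPM) in the cortex, a log2 ratio of 7.01 (5.46 to 9.29). Fancd2 lies on the plus strand at chr6:113531682-113597017 and Brip1 on the minus strand at chr11:86058138-86201193. The cortex counts of these 3 genes were 0, 19 and 3 reads, so that the SVZ library carried nearly all of their reads.

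The core complex attaches the ubiquitin. Fanca, a scaffold subunit, was by the unstranded count the least abundant of the 40 genes per length in the SVZ. It had 145 reads and 15 reads, a log2 ratio of 2.05 (1.28 to 2.93). The stranded columns summed to 383 reads and 82 reads, so that its rank depends on the count used. Fancb had 11.0 CPM in the SVZ and 4.63 CPM in the cortex, a log2 ratio of 1.25, and Fancl, the ubiquitin ligase, 18.5 CPM and 9.25 CPM, a log2 ratio of 1.00 (0.78 to 1.23). Fancm, which anchors the complex on DNA, had 14.9 CPM and 8.34 CPM, and Fancc 13.0 CPM and 8.80 CPM, with log2 ratios of 0.84 and 0.57. Fancl thus lay at the 2-fold limit itself. Fancg, another core subunit, had 1033 reads (20.1 CPM) in the SVZ and 576 reads (26.1 CPM) in the cortex, a log2 ratio of -0.38 (-0.53 to -0.23). Of the 9 Fanconi genes 6 were at least 2-fold higher in the SVZ.

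Genes that process ends and mismatches were each higher in the SVZ. Exo1, a nuclease that resects ends, had 1615 reads (31.4 CPM) in the SVZ and 47 reads (2.13 CPM) in the cortex, a log2 ratio of 3.88 (3.46 to 4.33). Polq, the polymerase of microhomology-mediated joining, had 9.58 CPM and 3.17 CPM. Blm, the helicase that dissolves recombination intermediates, had 47.1 CPM and 16.0 CPM. Msh6, which recognises mismatches, had 77.5 CPM and 45.6 CPM, a log2 ratio of 0.77 (0.67 to 0.87).

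End joining genes were well represented in both areas. Xrcc6 and Xrcc5 encode Ku70 and Ku80, the ring that slides onto broken ends. Xrcc6 had 119 CPM in the SVZ and 78.7 CPM in the cortex, a log2 ratio of 0.59, and Xrcc5 69.3 CPM and 25.0 CPM, a log2 ratio of 1.47. Prkdc, the kinase that Ku recruits, had 26.7 CPM and 12.7 CPM. Lig4, the ligase that seals the ends, had 24.0 CPM and 10.7 CPM, while its scaffold Xrcc4 had 49.0 CPM and 43.7 CPM, with a log2 ratio of 0.17 (0.06 to 0.27). Trp53bp1 encodes 53BP1, which protects ends from resection. It was higher in the cortex, with 77.1 CPM in the SVZ and 104 CPM in the cortex, a log2 ratio of -0.42 (-0.50 to -0.35). None of the 6 was 4-fold apart.

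**Figure D2:**
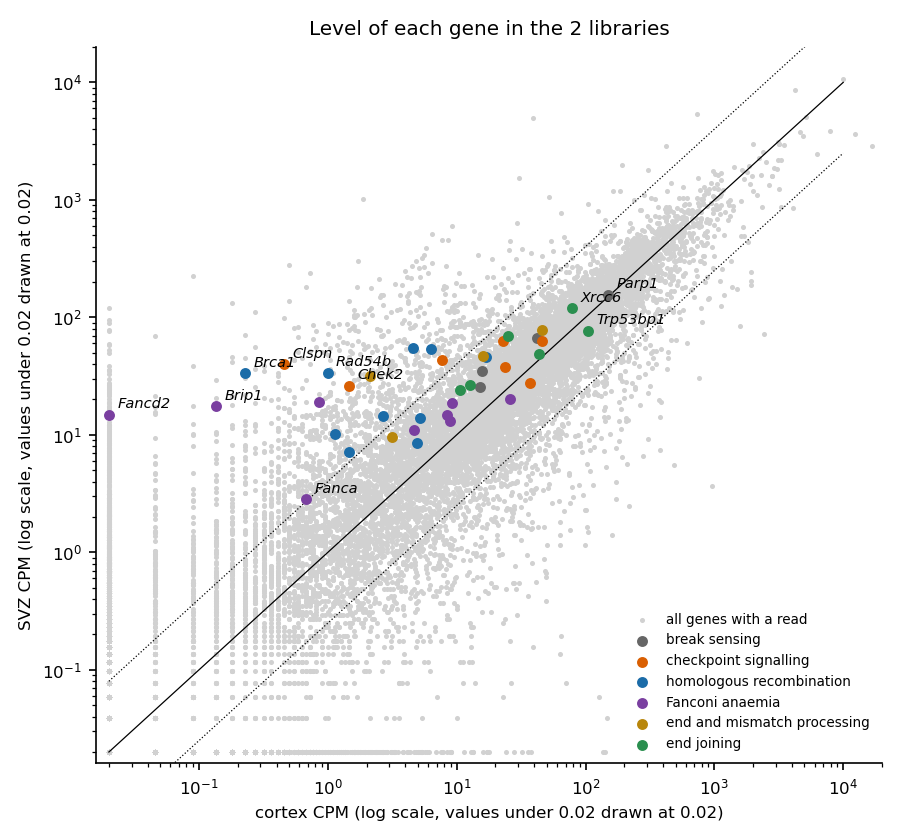
Level of each gene in the cortex (x axis) and the SVZ (y axis), in CPM on log scales, with the 40 repair genes in colour over all genes that had a read (grey). The solid line marks equal CPM and the dotted lines 4-fold differences. Brca1, Brip1, Fancd2 and Clspn lie far to the left at under 1 CPM in the cortex, while Parp1, Xrcc6 and Trp53bp1 lie near the line.

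Proteins that act together were set side by side. For 13 pairs, chosen after the values were seen, the difference of the log2 ratios was computed with an exact interval. Brca1 exceeded Bard1 by 4.88 (3.50 to 6.61). In the SVZ Brca1 had 3.97 times the level of Bard1 per length, and in the cortex 0.135 times. Chek2 exceeded Chek1 by 1.69 (1.13 to 2.29), and both stood at nearly one level per length in the SVZ, where the quotient was 1.02, and at a quotient of 0.316 in the cortex. Xrcc3 exceeded Rad51c by 1.74 (1.08 to 2.45), and Rad54b exceeded Rad54l by 1.50 (0.82 to 2.25). These pairs differed in the cortex more than in the SVZ.

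Smaller differences were found within the kinase and ligase complexes. Atr exceeded Atrip by 1.10 (0.91 to 1.29), Lig4 exceeded Xrcc4 by 1.01 (0.78 to 1.24) and Xrcc5 exceeded Xrcc6 by 0.88 (0.72 to 1.03). Brca2 exceeded Palb2 by 0.65 (0.30 to 1.00) and Nbn exceeded Rad50 by 0.46 (0.27 to 0.66). Atm and Atr differed by -0.24 (-0.41 to -0.06). Fancd2, at its floor of 3 cortex reads, exceeded Fanci by 2.32, more than these pairs. That value uses the unstranded log2 ratio of 4.46 for Fanci, which was 2.33 when reads were counted on each strand apart and summed. Brip1 and Brca1, both with 5 or fewer cortex reads, differed by -0.18 with an interval of -2.55 to 2.51, too wide to order them.

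Levels were compared between genes only per length, as reads per 1000 bases of the longest transcript and 1000000 reads (RPKM). The set had a median of 5.71 RPKM in the SVZ and 1.79 RPKM in the cortex. By the unstranded count, levels in the SVZ ran from 0.629 RPKM for Fanca to 40.4 RPKM for Parp1, which also led in the cortex with 38.7 RPKM. The 15 genes that were 4-fold or more higher in the SVZ had a median of 4.51 RPKM there and 0.273 RPKM in the cortex. The 14 genes under 2-fold apart had medians of 7.63 RPKM and 8.78 RPKM. The groups were chosen by their ratio, so that a gap in at least 1 of the areas follows from the choice. By the same count 7 of the 40 genes, Brca1, Brip1, Fancd2, Clspn, Rad54b, Fanci and Fanca, were under 1 CPM in the cortex, and none was in the SVZ.

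**Figure D3:**
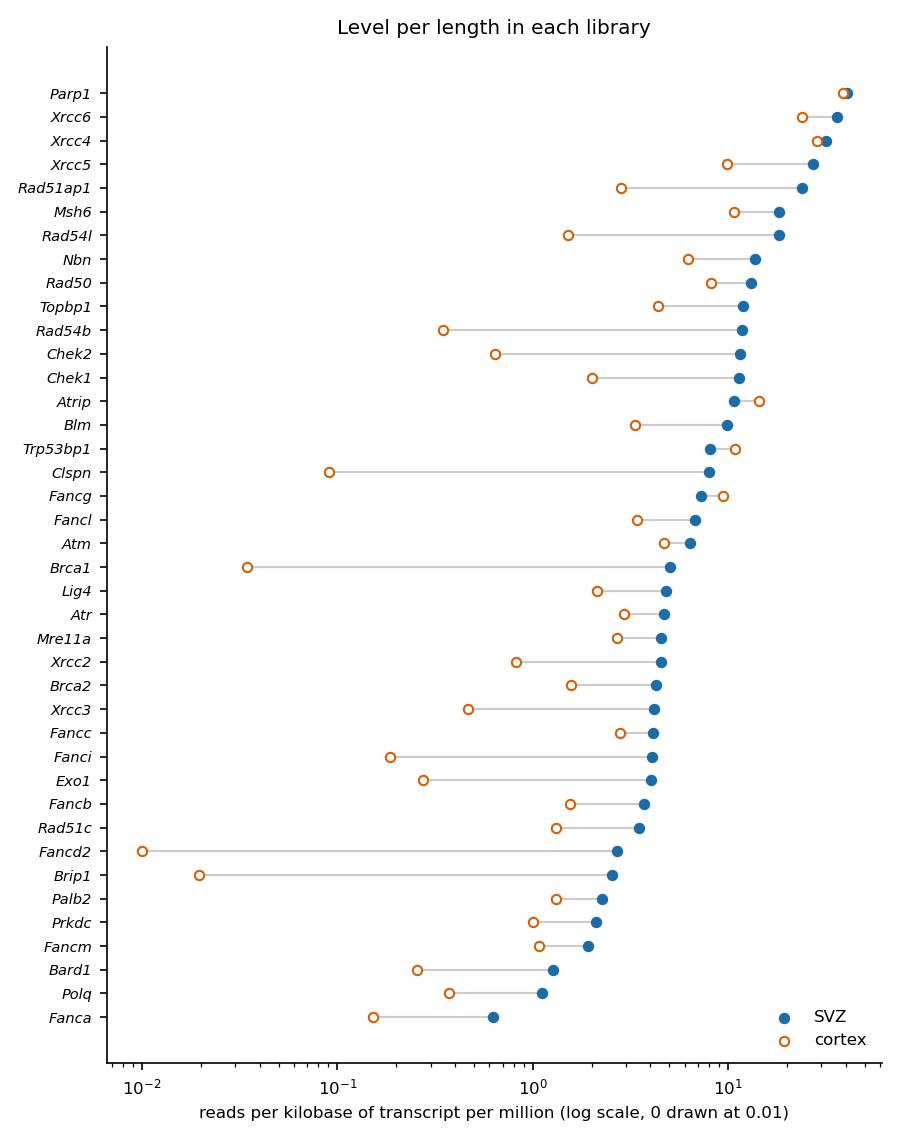
Level per length of the 40 genes in the SVZ (filled) and the cortex (open), in RPKM on a log scale, ordered by the SVZ level. Lines join the values of each gene. By the unstranded count, SVZ values span 0.629 to 40.4, while cortex values reach down to 0 for Fancd2, drawn at 0.01.

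Promoters were examined because E2F factors are known to drive genes of the S phase, several repair genes among them. RefSeq promoter windows on GRCm38.p6, from 250 bases before to 50 after the transcription start, were found for 33 of the 40 genes. Rad50, Xrcc2, Fancd2, Prkdc, Nbn, Rad54b and Exo1 had none. The letters TTTCCCGC, TTTCGCGC, TTTGCCGC and TTTGGCGC, which E2F proteins bind, were searched on both strands. Windows with a match were held by 9 of the 33 genes (27.3%), compared with 4.67% of 9706 genes measured with a window and 2.60% of all 27025 symbols with one. The matches are printed in capitals in 30 bases on the gene's strand, to show where in each promoter the letters stand and what surrounds them.
Bard1 (chr1:71103163-71103192, minus strand, match 209 bases before the start): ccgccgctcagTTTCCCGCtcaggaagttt
Fancg (chr4:43010335-43010364, minus strand, match 52 bases before the start): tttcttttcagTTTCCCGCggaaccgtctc
Clspn (chr4:126556990-126557019, plus strand, match 21 bases after the start): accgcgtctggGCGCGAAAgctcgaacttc
Chek2 (chr5:110839820-110839849, plus strand, match 152 bases before the start): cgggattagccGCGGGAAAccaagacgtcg
Brca2 (chr5:150522442-150522471, plus strand, match 168 bases before the start): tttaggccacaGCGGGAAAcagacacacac
Topbp1 (chr9:103305187-103305216, plus strand, match 129 bases before the start): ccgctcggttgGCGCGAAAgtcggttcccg
Rad51c (chr11:87404477-87404506, minus strand, match 11 bases after the start): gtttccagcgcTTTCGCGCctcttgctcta
Rad51c (chr11:87404941-87404970, minus strand, match 5 bases before the start): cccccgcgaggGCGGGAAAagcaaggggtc
Xrcc6 (chr15:82016312-82016341, plus strand, match 46 bases before the start): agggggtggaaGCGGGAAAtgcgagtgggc
Msh6 (chr17:87975054-87975083, plus strand, match 15 bases after the start): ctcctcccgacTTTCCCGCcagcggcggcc

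Genes with and without a match differed little in their ratios, which was not tested. The 9 genes with a match had a median log2 ratio of 1.45 and the 24 without one 1.21. At least 2-fold higher in the SVZ were 6 of the 9 and 14 of the 24. Among all genes measured with a window, 25.4% of those with a match and 19.8% of those without one were 2-fold higher. Medians of these genes were 0.38 with a match and 0.11 without. Clspn, with a log2 ratio of 6.46, Chek2, with 4.18, and Bard1, with 2.31, held a match, and so did Fancg, which was higher in the cortex. Rad51c held one in each of its printed windows, which lie at different start sites, and in 1 of them the letters overlap a GC box. For comparison, 11 of 21 S phase genes with a window held a match (52.4%), 1 of 16 mitotic genes and 0 of 11 nucleotide excision repair genes.

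Other promoter letters were searched the same way. The CCAAT box (CCAAT or ATTGG), bound by NF-Y, was in the windows of 19 of the 33 genes (57.6%) and of 43.3% of genes measured. The GC box (GGGCGG or CCGCCC), bound by SP1, was in 22 (66.7%) against 70.2%. The letters TTTGAA or TTCAAA, the core of the CHR element of genes expressed late in the cell cycle, were in 2 (6.06%), those of Bard1 and Polq, against 13.8% of genes measured and 75.0% of the 16 mitotic genes. The 150 bases before the start of the 3 genes with the largest ratios among those with a window, and of Parp1, the gene nearest to equal levels, are printed with CCAAT boxes in capitals.
Brca1 (chr11:101551956-101552105, minus strand): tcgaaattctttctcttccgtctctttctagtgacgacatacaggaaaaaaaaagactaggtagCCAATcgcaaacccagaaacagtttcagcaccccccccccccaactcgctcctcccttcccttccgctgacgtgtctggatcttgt
Brip1 (chr11:86201194-86201343, minus strand): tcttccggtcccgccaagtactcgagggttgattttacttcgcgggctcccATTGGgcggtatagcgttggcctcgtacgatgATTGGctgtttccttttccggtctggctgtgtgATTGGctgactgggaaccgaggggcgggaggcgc
Clspn (chr4:126556830-126556979, plus strand): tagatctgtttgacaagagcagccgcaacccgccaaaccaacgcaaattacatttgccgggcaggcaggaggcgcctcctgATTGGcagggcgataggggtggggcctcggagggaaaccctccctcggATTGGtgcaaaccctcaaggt
Parp1 (chr1:180568741-180568890, plus strand): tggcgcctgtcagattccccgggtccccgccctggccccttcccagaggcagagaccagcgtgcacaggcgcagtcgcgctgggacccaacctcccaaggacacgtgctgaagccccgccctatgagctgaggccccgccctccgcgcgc

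In these stretches Brca1 held 1 CCAAT box, Brip1 held 3, Clspn held 2 and Parp1 held 0. The first box of Brip1 overlaps a GC box. A match of letters is a description and not a binding site, and letters that are missing from a window say nothing of the factor.

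**Figure D4:**
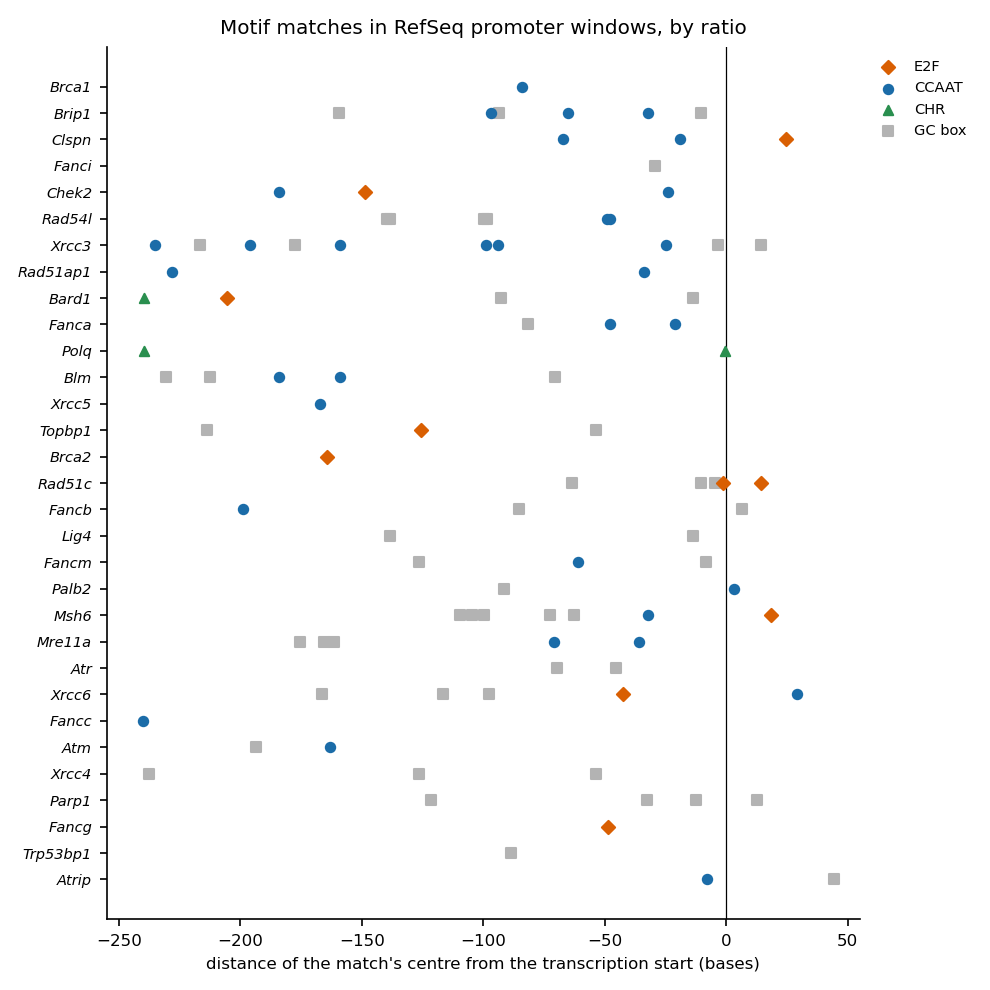
Distance in bases from the transcription start (x axis, 0 at the start) of each match of the 4 kinds of promoter letters, for genes with a window and at least 1 match, ordered from the highest ratio of SVZ to cortex (top) to the lowest. E2F letters occur in genes along the whole order, from Clspn at the top to Fancg near the bottom.

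Some of the genes start close to a gene read the other way, and the share of all genes that do was not computed. In the annotation 17 of the 40 had a neighbour on the opposite strand whose start lay within 1000 bases of their own, head to head. In 14 of these the neighbour also reached 1 CPM, and the repair gene had the higher ratio in 13. Such a count is apt to be high for genes with ratios above those of most genes. It was not compared with unrelated genes. The medians were 2.17 for the repair genes and 0.26 for their neighbours, and of the 14 pairs 10 repair genes and 4 neighbours were at least 2-fold higher in the SVZ, where 20.0% of all genes were. The start of Fancd2 lies 30 bases from that of Emc3, a subunit of a membrane protein insertion complex, which had 6058 reads in the SVZ and 2178 in the cortex, a log2 ratio of 0.25. Brca1 starts 194 bases from Nbr1, an autophagy receptor gene, which had 8457 reads and 2447 reads, a log2 ratio of 0.57 (0.50 to 0.63). Rad54l starts 150 bases from Pomgnt1, with a log2 ratio of -0.24, and Lig4 21 bases from Abhd13, with -0.69. The exception was Prkdc, with 1.07, whose neighbour Mcm4, a subunit of the replicative helicase, had 2.04 (1.94 to 2.14).

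Overlap with other genes bears on some counts. Exons of 16 of the 40 genes overlap those of another gene in GENCODE M21. An unstranded count leaves out reads in bases that genes share in the annotation used for counting. That annotation was the study's own and may differ. Fancd2, Mre11a, Xrcc4 and Xrcc6 overlap a gene on the opposite strand, yet the stranded columns held no further reads for them. When reads were counted on each strand apart and summed, Fanci had 1644 reads in the SVZ and 140 in the cortex, a log2 ratio of 2.33 in place of 4.46, and it shares 921 bases with Polg on the opposite strand. Fanca, which shares 920 bases with Zfp276, had 1.00 in place of 2.05. Rad54l, which shares 1184 bases with Lrrc41, had 3.00 in place of 3.58. Trp53bp1, which shares 2130 bases with Tubgcp4, had -0.21 in place of -0.42. The direction stayed in all 4, and reads of a gene and its opposite partner cannot be told apart without strand. Without the 16 genes, the median of the other 24 was 1.46, with 19 at least 2-fold and 9 at least 4-fold higher in the SVZ.

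Repair genes outside the set were less far apart between the areas. In 8 lists of other repair and checkpoint genes, 108 of 112 genes were measured, with a median log2 ratio of 0.52, and 33 were at least 2-fold higher in the SVZ (30.6%) and 1 in the cortex. Other recombination genes had a median of 0.71, with 8 of 22 at least 2-fold higher in the SVZ. They ran from Rad51b, a recombination mediator, to Nabp1, a single-strand binding protein, with -1.99. Rad51b had 905 reads in the SVZ and 0 in the cortex, 129-fold higher by the floor of 3 reads. The interval of its log2 ratio began at 6.71. Rbbp8, which encodes the resection factor CtIP, had 2.18. Other Fanconi genes had a median of 0.92, from Ube2t, the conjugating enzyme of the pathway, with 3.27, to Faap100 with -0.93. Fancf, a core complex subunit named after its value was seen, had 110 reads in the SVZ and 5 in the cortex, a log2 ratio of 3.24 (1.97 to 4.89). Other checkpoint genes had a median of 0.89, from Wee1, the kinase that holds mitosis, with 3.21, to Rad9b with -0.92, and H2afx, the histone phosphorylated at breaks, had 1.97. Other end joining genes had a median of 0.51, from Nhej1 with 2.06 to Polm with -0.49.

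Further lists held pathways for other kinds of damage. Mismatch repair had a median of 0.44, from Pms1 with 2.62 to Mlh3 with -0.27. Base excision repair had 0.81, from Smug1 with -0.14 to Neil3, a glycosylase with 3665 reads in the SVZ and 5 in the cortex and a log2 ratio of 8.30 (7.07 to 9.92), an interval that overlaps those of Brca1 and Brip1. Translesion synthesis had 0.42, from Rad18 with 1.47 to Rev3l with -0.82. Nucleotide excision repair, which removes bulky lesions, had a median of -0.00, none of its 15 genes was 2-fold apart, and they ran from Cetn2 with 0.91 to Ercc6 with -0.62.

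Targets of p53, the transcription factor that damage signalling activates, lay on both sides of equal levels. Of 18 measured, 3 were at least 2-fold higher in the SVZ and 4 in the cortex, near the 20.0% and 15.6% of all genes, with a median of 0.18. Cdkn1a, the cell cycle inhibitor, had 11.1 CPM in the SVZ and 8.03 CPM in the cortex, and Mdm2, the ligase that degrades p53, 80.8 CPM and 72.2 CPM. Trp53 itself had 106 CPM and 69.5 CPM, a log2 ratio of 0.61. The extremes were Btg2, also a gene of neurogenic progenitors, with 2.89, and Plk2, also a gene of neuronal activity, with -4.23. Among apoptotic targets, Pmaip1 and Bbc3, named after their values were seen, were also higher in the cortex. Others lay on either side, such as Fas with -1.65, Bax with 0.19 and Aen with 0.20. Pmaip1 had 26 reads in the SVZ and 182 in the cortex, a log2 ratio of -4.03, and Bbc3 44 reads and 245 reads, a log2 ratio of -3.70.

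Genes of the cell cycle were further apart than most of the repair set. Of 25 S phase replication genes 23 were at least 2-fold higher in the SVZ, with a median log2 ratio of 2.33, and all 20 mitotic genes were, with a median of 5.62. The S phase list ran from Pole, a replicative polymerase, with 0.70 to Cdc6, which loads the replicative helicase, with 5.54, and the mitotic list from the checkpoint kinase Bub1 with 4.07 to the mitotic kinase Plk1 with 6.55. The S phase median was exceeded by 13 of the 40 repair genes. The mitotic median was exceeded by 4, Brca1, Brip1, Fancd2 and Clspn, which all had few or no cortex reads. The counting intervals of Brip1 and Clspn began below that median, at 5.46 and 5.58. With a pseudocount of 1 CPM the ratios of Brca1, Brip1, Fancd2 and Clspn were 4.80, 4.03, 3.99 and 4.82. The mitotic median was not recomputed with a pseudocount. Cell cycle genes and repair genes were measured in the same libraries, and the part of cycling cells in the repair values was not tested.

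**Figure D5:**
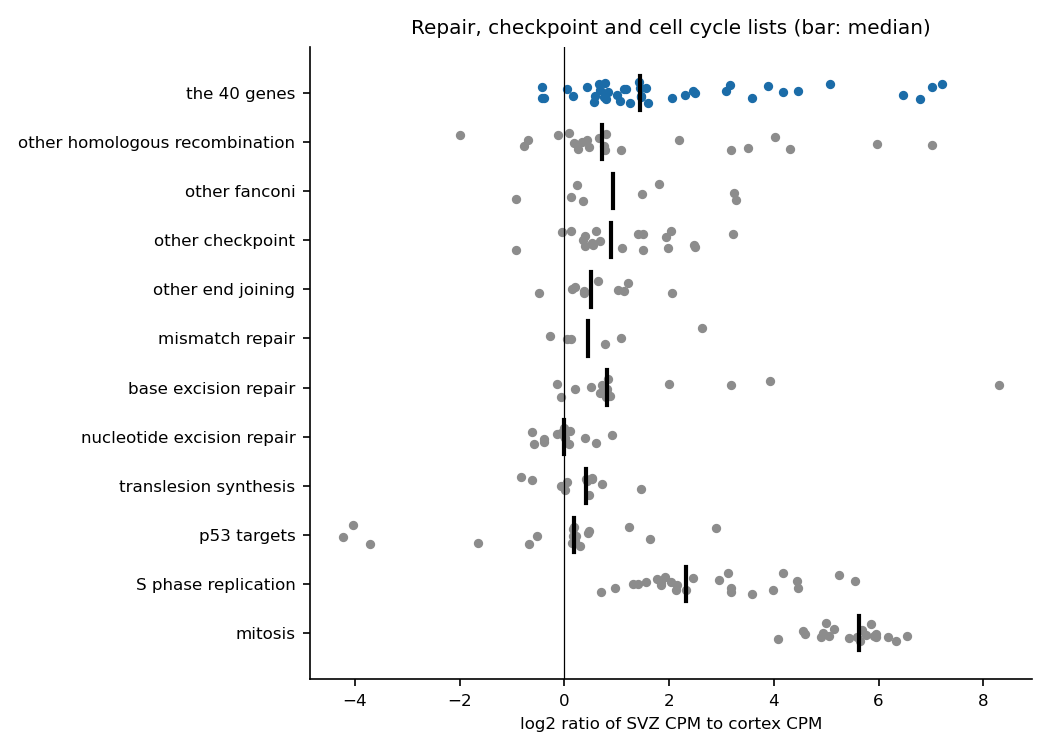
Log2 ratio of CPM between SVZ and cortex (x axis) for the 40 genes (blue) and for the other repair, checkpoint and cell cycle lists (grey), 1 point for each gene that reached 1 CPM on average, with list medians as bars and bounds drawn at their bound. The 40 genes span -0.43 to 7.20, from the range of nucleotide excision repair up to that of mitosis, whose median is 5.62.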

How the data were processed

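Per the study's methods, H&E-stained cryosections were cut by LCM, RNA was made into low-input cDNA libraries, and adapters were removed with cutadapt 4.1. Read 1 was mapped to mm10 (GRCm38) with STAR 2.7.9a, which also counted them by gene. The deposited counts are raw whole numbers in 3 columns per library, 1 without strand and 2 by strand. Their unstranded column was used here. The sources used here name no molecular identifiers. A further table of the authors, with their own CPM and fold changes, was not used.

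CPM was computed on gene-assigned reads, which were 59.0% of SVZ reads and 59.1% of cortex reads. The log2 ratio of SVZ to cortex had no pseudocount. A count of 0 was set to 3 reads in that library and called a bound. A gene needed an average of 1 CPM to enter counts and medians. Transcript lengths and neighbours came from GENCODE M21, with a length for 96.4% of these genes. Promoters came from RefSeq. The 40 genes, the lists and the pairs were chosen with earlier results of these data known. Named are all 40 genes, the highest and lowest gene of each other pathway list, a few fixed partners and marker genes. Some partners are not reported here. The head-to-head neighbours, overlapping genes and a few others were named after their values were seen. Scaling alternatives used edgeR 4.0.16 and DESeq2 1.42.0 in R 4.3.3, for normalization only, and the rest matplotlib 3.10.9, pandas 2.3.3, scipy 1.17.1 and numpy 2.4.6 in Python 3.11.15. The ratio procedure was tested only on simulated independent counts, the case that its interval assumes. Such data hold no PCR copies and no spread between samples.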

Additional observations from a re-analysis of the deposited data

Results flagged for a closer look

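Reads that the unstranded count leaves out but a stranded column holds were found for 9 of the 40 genes, beyond the 3 reads that a count of 0 allows. In the SVZ library these came to 3648 for Trp53bp1, 669 for Fanci, 595 for Fancl, 370 for Msh6, 324 for Rad54l, 238 for Fanca, 40 for Fancc, 23 for Xrcc3 and 12 for Atr. Exons of each of the 9 overlap those of a gene on the opposite strand. The overlap is 34 bases for Msh6 and 12 bases for Xrcc3. Samples far from others and differences between groups of samples could not be looked for with 1 library per area.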

How the results depend on the processing

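Under other scalings, stranded sums, thinning of the SVZ library to the depth of the cortex library, a pseudocount of 1 CPM, no filter and centring on transcript length, the genes 2-fold or more higher in the SVZ numbered 24 to 26, and 0 genes were 2-fold higher in the cortex under each of these. With a mean of at least 10 CPM required, 29 genes remained, with 16 at least 2-fold and 8 at least 4-fold higher in the SVZ and a median log2 ratio of 1.07. The mean in place of the median was 2.10. Where the whole counting interval had to pass the fold, the counts were 21 and 13. Shares of all genes were computed for the main settings only, so that the counts of this paragraph have no background beside them. Leaving out the genes with exon overlap, an alternative chosen after seeing the data, left 9 genes at 4-fold. The median of homologous recombination was 2.24 with a pseudocount. Scalings shifted all ratios by -0.10 to -0.03, and Parp1 changed sign, to -0.03 under TMM and DESeq2 size factors and -0.04 under upper-quartile scaling. Of 280 recomputed ratios of single genes, 256 stayed within their counting interval and 21 moved outside it with the same sign. Under the pseudocount alone 11 genes moved outside it, those with the largest ratios among them. Brca1 then had 4.80 in place of 7.20 and Brip1 4.03 in place of 7.01. Fancd2 had 3.99 in place of 6.78 and Clspn 4.82 in place of 6.46. No paired analysis was possible because there is a single library of either area, and so none could be left out. Ratios that rest on few cortex reads, such as those of Brca1, Brip1 and Clspn, have the widest intervals.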
